A study of Mus musculus with 18 samples.

Results

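A group of 10 target genes of p53 that promote apoptosis was followed in mouse acute myeloid leukemia (AML) after CX-5461, a drug that blocks transcription by RNA polymerase I. The genes were taken as a given list, which was chosen with earlier results of these data known. They were Tnfrsf10b, Fas, Bbc3, Pmaip1, Bax, Apaf1, Aen, Perp, Ei24 and Trp53inp1, and 9 of the 10 were among the 13787 genes listed in any of the 3 deposited tables. Perp, which encodes a membrane protein with a role in p53-dependent cell death, was in none of them, so no value is given for it. RNA came from GFP-positive AML cells sorted out of the bone marrow of C57BL/6 recipients after transplant of leukemia cells. The 18 samples formed 6 groups of 3. They were p53null AML given CX-5461 or vehicle for 10 h, p53WT AML given CX-5461 or vehicle for 10 h, and p53WT AML given CX-5461 or vehicle for 72 h. All 6 groups carried the MLL/ENL fusion and Nras. The labels do not say which part of the p53 gene is lost or whether each genotype is 1 leukemia clone. Nor is the number of animals stated, so that the p-values below measure the spread between these samples.

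The transcription factor p53 is held low by Mdm2 in unstressed cells. Block of ribosome production frees ribosomal proteins that bind Mdm2, and p53 then accumulates and activates its targets. Targets that promote apoptosis act at several levels: Tnfrsf10b and Fas encode death receptors at the cell surface, Bbc3 (PUMA) and Pmaip1 (NOXA) encode BH3-only proteins that neutralise anti-apoptotic BCL2 proteins, Bax encodes a protein that permeabilises the outer mitochondrial membrane, and Apaf1 encodes the scaffold of the apoptosome that activates caspase 9. Aen encodes a nuclease that enhances apoptosis, Ei24 a membrane protein of the endoplasmic reticulum induced by p53, and Trp53inp1 a nuclear cofactor of p53 that also acts in autophagy.

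Sequence upstream of the start of transcription was at hand for 6 of the 10 genes (Bbc3, Bax, Aen, Ei24, Apaf1 and Fas), from RefSeq on the build GRCm38.p6. The 250 bases before each start were searched for the p53 consensus decamer of 10 bases, exact, and for a pair of such decamers without a spacer (20 bases) at up to 3 mismatches. Both motifs read the same on either strand, and a decamer can lie within a pair. The windows of 4 genes are shown because they hold a match, which is in capitals.
Bbc3, chr7:16309333-16309582, plus strand: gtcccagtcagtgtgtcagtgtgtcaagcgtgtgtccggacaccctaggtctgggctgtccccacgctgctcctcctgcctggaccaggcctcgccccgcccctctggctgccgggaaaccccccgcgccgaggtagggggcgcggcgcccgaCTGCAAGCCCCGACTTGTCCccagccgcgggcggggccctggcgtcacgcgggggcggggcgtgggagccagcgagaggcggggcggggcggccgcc
Bax, chr7:45466899-45467148, minus strand: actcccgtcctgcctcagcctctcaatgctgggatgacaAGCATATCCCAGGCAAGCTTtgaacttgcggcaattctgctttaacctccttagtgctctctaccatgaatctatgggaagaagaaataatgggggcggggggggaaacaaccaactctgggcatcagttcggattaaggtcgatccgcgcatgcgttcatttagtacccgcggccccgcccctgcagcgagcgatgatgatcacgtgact
Aen, chr7:78895808-78896057, plus strand: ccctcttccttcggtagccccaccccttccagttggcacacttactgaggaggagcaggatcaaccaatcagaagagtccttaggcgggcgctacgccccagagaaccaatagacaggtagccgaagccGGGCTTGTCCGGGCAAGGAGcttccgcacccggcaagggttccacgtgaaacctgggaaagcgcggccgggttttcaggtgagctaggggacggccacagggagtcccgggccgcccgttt
Ei24, chr9:36797335-36797584, minus strand: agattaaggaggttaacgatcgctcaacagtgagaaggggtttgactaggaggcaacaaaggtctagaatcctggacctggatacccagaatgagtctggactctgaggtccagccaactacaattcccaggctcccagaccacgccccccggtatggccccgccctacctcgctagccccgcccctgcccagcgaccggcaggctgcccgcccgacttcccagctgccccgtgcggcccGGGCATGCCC
The decamer pairs began 97 bases before the start in Bbc3, 211 in Bax and 121 in Aen, each with 3 mismatches. An exact decamer stood 201 bases before the start in Bax, 121 in Aen and 10 in Ei24. Bbc3 has 3 annotated starts and Aen 2, and the windows of their other starts held no match, nor did those of Fas and Apaf1. Of 32851 windows of all genes, 7.13% held the exact decamer and 5.32% the pair. A match is a description of the letters and not a bound site, and sites further away were not searched.

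Counts per library were at hand for p53WT AML at 10 h, with totals of 21578685 to 37244725 in the CX-5461 libraries and 22090394 to 48118513 in the vehicle libraries. Every measured gene of the list had at least 148 counts in each of the 6 libraries. Trp53, which encodes p53, averaged 61.5 CPM (counts scaled to a common library size) over the p53null samples in the authors' deposited table, against 169 CPM over the p53WT samples of 10 h and 163 CPM over those of 72 h. All 8 markers fixed for leukemic and myeloid cells (Ptprc, Hoxa9, Hoxa10, Meis1, Kit, Mpo, Elane and Itgam) were measured in each table. Their summed level was 13371 to 13408 CPM in the CX-5461 libraries and 10619 to 13263 CPM in the vehicle libraries of p53WT AML at 10 h. Most of this sum came from Mpo (means 7776 CPM with CX-5461 and 6435 CPM with vehicle) and Elane (4256 and 3696 CPM). Of the 8 markers 6 had a log2 fold change above 0. Ptprc had -0.41 and was called lower (adjusted p 0.0344 by the edgeR quasi-likelihood test), and Itgam had -0.57 (adjusted p 0.0517 by that test). The summed level of the 13 measured erythroid markers was 246 to 451 CPM in the CX-5461 libraries, against 5724, 19592 and 632 CPM in vehicle libraries 1, 2 and 3. The 12 mature neutrophil markers summed to 3051 to 4189 CPM with CX-5461 and 7317 to 19310 CPM with vehicle. The 11 monocyte and macrophage markers summed to 1515 to 1770 CPM with CX-5461 and 1482 to 2025 CPM with vehicle, a sum in which Ly6c2 alone had a mean of 1067 CPM with CX-5461 and 1094 CPM with vehicle. The median log2 fold change of these 11 markers was -0.74. Of the 11, 8 had every CX-5461 library below every vehicle library, which was so for 19.1% of all genes. The T and NK cell markers Cd3e, Cd3g, Cd2, Ncr1 and Klrb1c were not in the count table. Cd3d of that list had 0.63, 0.87 and 0.60 CPM with CX-5461 and 1.31, 4.90 and 1.07 CPM with vehicle. Of 5 B cell markers 2 were measured. Cd79a had means of 0.95 CPM with CX-5461 and 12.6 CPM with vehicle (8.64, 28.5 and 0.76 CPM), and Cd79b 23.2 and 30.5 CPM. The adjusted p of Cd3d, Cd79a and Cd79b were 0.11, 0.0732 and 0.266 by the edgeR quasi-likelihood test. Except where values below bear on it, the part of these other cells in the results was not tested. In sorted samples of mixed cells, fewer cells of a type and less RNA per cell cannot be told apart.

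The first comparison asked which of these genes responded to 10 h of CX-5461 in AML with p53. Of the 9 measured, 6 rose (Bbc3, Tnfrsf10b, Bax, Aen, Pmaip1 and Ei24), 0 fell and 3 did not pass (Trp53inp1, Fas and Apaf1) in the edgeR quasi-likelihood test at a Benjamini-Hochberg adjusted p under 0.05 over all 12679 genes. Of all genes tested, 3.78% rose by the same rule. The median log2 fold change of the 9 genes, CX-5461 over vehicle, was 0.82, against 0.00404 over all genes. In 8 of the 9 genes every CX-5461 library lay above every vehicle library, which was so for 19.9% of all genes, and in 0 every CX-5461 library lay below, which was so for 19.1%. With the erythroid level of each library as a covariate 3 remained called (Bbc3, Bax and Aen), while Tnfrsf10b had a log2 fold change of 1.35 (adjusted p 0.195), Pmaip1 0.94 (0.235) and Ei24 0.79 (0.21) in that edgeR quasi-likelihood fit. The erythroid level (mean log2 CPM of the markers) was 1.7, 1.8 and 2.2 in CX-5461 libraries and 6.6, 8.4 and 3.7 in vehicle libraries. It did not overlap between the arms, so treatment and erythroid level cannot be well told apart in that fit. Of all 12679 genes it called 20, against 1027 without the covariate. In the fit without it, called changes ranged from a log2 fold change of 0.71 for Ei24 to 1.68 for Bbc3.

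The death receptor gene Tnfrsf10b (ENSMUSG00000022074), which encodes the TRAIL receptor DR5, had 20.01, 21.7 and 17.5 CPM in the CX-5461 libraries, against 7.06, 5.58 and 6.80 CPM in the vehicle libraries. The lowest CX-5461 library was well above the highest vehicle library, and the gene rose 3.04-fold, a log2 fold change of 1.602 (SE 0.129) with an adjusted p of 0.00296 by the edgeR quasi-likelihood test. Fas (ENSMUSG00000024778), the receptor for Fas ligand, had 14.6, 16.3 and 13.5 CPM with CX-5461 and 13.7, 17.6 and 12.1 CPM with vehicle. Its groups overlapped. The log2 fold change of Fas was 0.03, with a 95% interval of -0.33 to 0.39 and an adjusted p of 0.909 by the edgeR quasi-likelihood test. The vehicle libraries with more erythroid marker RNA had more Fas (library 2, then 1, then 3), an order that the summed mature neutrophil markers shared. Without vehicle library 2 the log2 fold change of Fas was 0.19 with an adjusted p of 0.319 by the same edgeR test. Fitted with the erythroid level, the value was 0.50 (unadjusted p 0.0445, adjusted p 0.454 in that edgeR quasi-likelihood fit), above the upper end of the interval without it. The limit given above for that fit holds here as well. The 2 receptor genes for death ligands thus had unlike values, and the interval of Fas did not reach that of Tnfrsf10b (1.30 to 1.91), although the difference between the genes was not itself tested.

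Among the mitochondrial arm, Bbc3 (ENSMUSG00000002083) had 26.8, 28.8 and 29.3 CPM with CX-5461 and 7.998, 9.77 and 8.73 CPM with vehicle. It had the largest fold change of the 9 genes, 3.21-fold, with means of 28.3 ± 1.34 CPM in CX-5461 libraries and 8.83 ± 0.889 CPM in vehicle libraries (SD, n = 3 each). Pmaip1 (ENSMUSG00000024521), the other BH3-only gene, had 65.6, 65.5 and 58.4 CPM with CX-5461 and 41.1, 36.2 and 32.4 CPM with vehicle. The groups did not overlap, and the gene rose 1.72-fold (log2 fold change 0.79, SE 0.0960) with an adjusted p of 0.0161 by the edgeR quasi-likelihood test. Without CX-5461 library 1, 2 or 3 the adjusted p of Pmaip1 was 0.114, 0.119 and 0.0697 at log2 fold changes of 0.76, 0.76 and 0.84. The effector gene Bax (ENSMUSG00000003873) had 168, 178 and 175 CPM with CX-5461 and 92.6, 83.6 and 88.6 CPM with vehicle. Both Bbc3 and Bax, at log2 fold changes of 1.68 (SE 0.0956) and 0.98 (SE 0.0552), had an adjusted p of 0.000506 by that test. Apaf1 (ENSMUSG00000019979) had 194, 202 and 192 CPM with CX-5461 and 181, 174 and 188 CPM with vehicle. Its groups did not overlap either, but the step between them was small, and its log2 fold change of 0.12 (95% interval -0.000151 to 0.23) had an adjusted p of 0.16 by the edgeR quasi-likelihood test. A rise in Apaf1 above 0.23 on the log2 scale thus lay outside the interval.

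Of the other members, Aen (ENSMUSG00000030609) had the smallest SE of the 9 genes, with 125, 127 and 122 CPM with CX-5461 and 62.9, 63.4 and 65.7 CPM with vehicle. It rose 1.94-fold, a log2 fold change of 0.96 (SE 0.0450), with an adjusted p of 0.000208 by the edgeR quasi-likelihood test. Ei24 (ENSMUSG00000062762) had 137, 155 and 135 CPM with CX-5461 and 82.0, 93.9 and 86.0 CPM with vehicle, a log2 fold change of 0.71 (SE 0.0759). All CX-5461 libraries were higher, with an adjusted p of 0.0121 by that edgeR test, which was 0.0815, 0.0694 and 0.0624 without CX-5461 library 1, 2 or 3. Trp53inp1 (ENSMUSG00000028211) had 84.2, 93.7 and 84.9 CPM with CX-5461 and 43.4, 69.9 and 35.7 CPM with vehicle. The CX-5461 libraries lay close together and above the vehicle libraries, of which library 2 stood apart from the other 2. Its log2 fold change was 0.82 (SE 0.226) with an adjusted p of 0.0647 by the edgeR quasi-likelihood test. Without vehicle library 2, which had the highest erythroid level and the highest summed neutrophil markers, it was 1.14 with an adjusted p of 0.00354. With the erythroid level as a covariate, under the limit given above for that fit, it was 1.71 with an adjusted p of 0.0545.

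**Figure D1:**
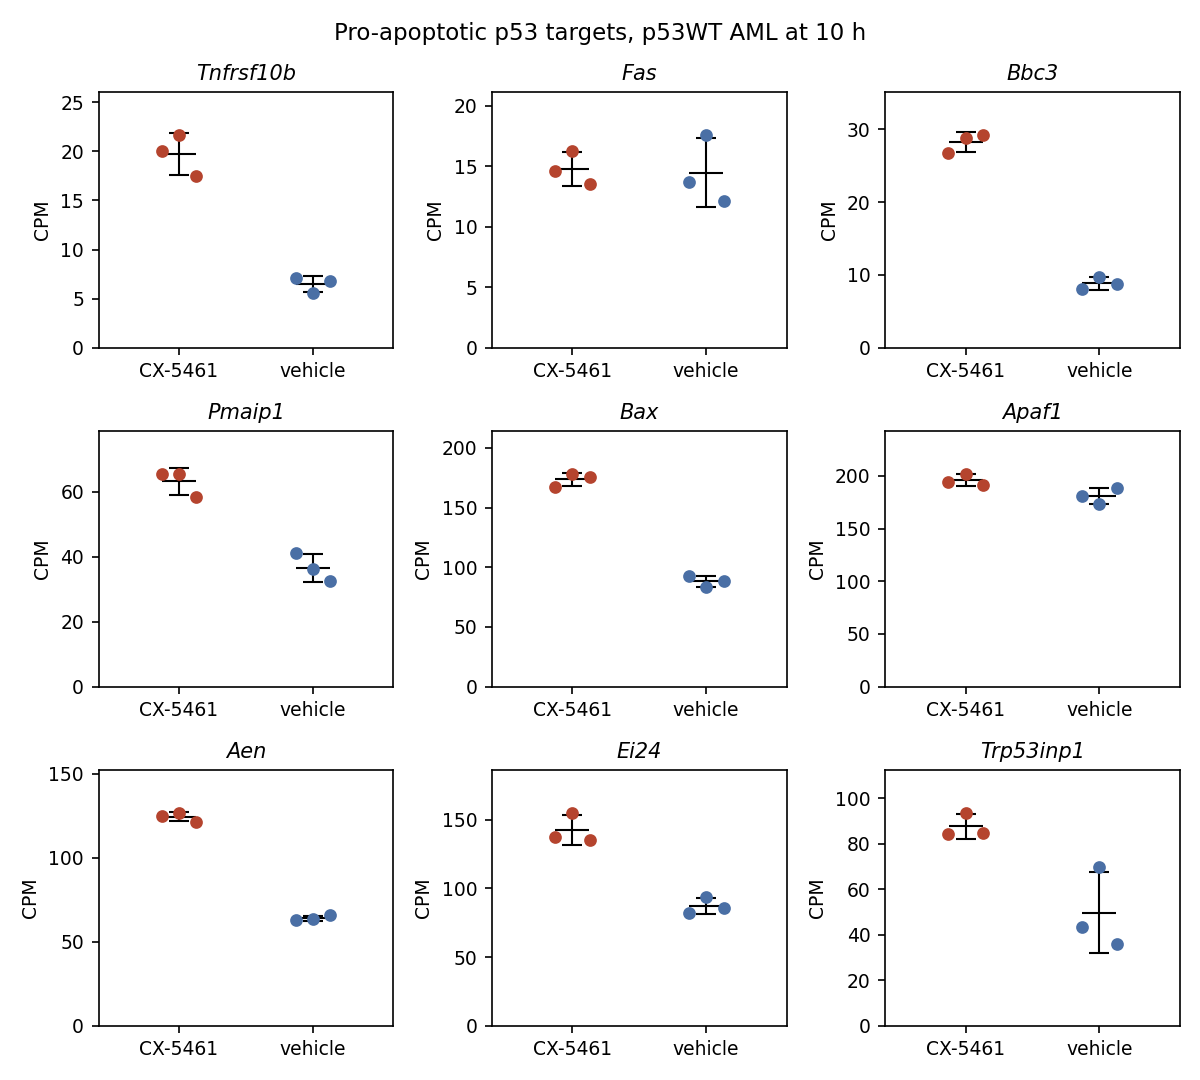
CPM (y axis, from 0, separate scale for each gene) of the 9 measured pro-apoptotic p53 targets in p53WT AML at 10 h, with 1 point per library, the mean as a black bar and the SD as whiskers (n = 3 per group). The CX-5461 libraries lie above all vehicle libraries for every gene but Fas, narrowly so for Apaf1, and vehicle library 2 stands apart for Trp53inp1.

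Levels can be compared between genes only per length. Divided by the length of all annotated exons (GENCODE M21, GRCm38, an annotation other than the one behind the counts), Bax had 110 CPM per kilobase with CX-5461 and 56.0 with vehicle, above the other 8 genes in each group. Tnfrsf10b had the lowest level of the 9 in each group, 3.62 CPM per kilobase with CX-5461 and 1.19 with vehicle. Bbc3 had 13.3 CPM per kilobase with CX-5461 and 4.16 with vehicle, and Apaf1 21.7 with CX-5461 and 20.03 with vehicle. In that annotation exons of the model gene Gm45808 overlap those of Bax on the same strand, and exons of Gm26787 overlap those of Ei24 on the other strand. Reads in the overlap with Bax could thus not be told apart. The kit did not mark strand, so that those in the overlap with Ei24 could not be told apart either.

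The second comparison asked whether the same genes moved in AML that lacks p53. In p53null AML at 10 h, by the FDR of the authors' deposited table, 0 of the 9 measured genes passed at 0.05, in a table where 0.148% of 12861 genes rose and 0.0389% fell. None of the 9 had an unadjusted p under 0.05 there, the smallest being 0.0517 for Bbc3. Counts of p53null AML were not analysed here, so no other test and no spread between libraries is given. Log2 fold changes ranged from -0.28 for Bbc3 to 0.10 for Ei24, with a median of -0.06 against -0.00189 over all genes, and 2 of the 9 were positive. The depth behind these values is unknown.

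Set side by side from the authors' deposited tables, the log2 fold change of Tnfrsf10b was -0.23 in p53null AML at 10 h (FDR 0.936) and 1.6002 in p53WT AML at 10 h (FDR 1.14e-19). That of Bbc3 was -0.28 without p53 (FDR 0.825) and 1.68 with it (FDR 4.47e-26). For Bax the authors' deposited values were -0.06 without p53 (FDR 1) and 0.98 with it (FDR 1.01e-11). These 3 genes, the highest in p53WT AML, thus had values below 0 in p53null AML. Aen had -0.11 in p53null AML and 0.96 in p53WT AML, Pmaip1 0.08 and 0.79, Ei24 0.10 and 0.71, and Trp53inp1 -0.15 and 0.82, in the authors' deposited tables. Fas had -0.05 and 0.03 and Apaf1 -0.01 and 0.12 there. By the authors' FDR, 7 of the 9 rose in p53WT AML at 10 h, Trp53inp1 among them, where 3.57% of all genes rose and 6.83% fell by the same rule. The difference between the genotypes was not tested, since no counts were at hand for p53null AML.

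The third comparison asked how the genes stood after 72 h in p53WT AML. In the authors' deposited table for 72 h, 6 of the 9 rose (Trp53inp1, Tnfrsf10b, Bax, Bbc3, Aen and Ei24), 0 fell and 3 did not pass, in a table where 16.1% of 12838 genes rose. The median log2 fold change was 0.44, against -0.008 over all genes. Trp53inp1 had the largest value of the group at 72 h, 1.18 (FDR 5.29e-33), against 0.82 at 10 h in the authors' deposited tables. The other genes called at 10 h had smaller values at 72 h than at 10 h: in those deposited tables Tnfrsf10b had 1.6002 at 10 h and 0.65 at 72 h, Bbc3 1.68 and 0.54, Bax 0.98 and 0.55, and Aen 0.96 and 0.44. Ei24 had 0.71 at 10 h and 0.24 at 72 h (FDR 0.0168 in the authors' deposited table), and Pmaip1 0.79 and 0.24 (FDR 0.0588). Fas had 0.03 at 10 h and 0.28 at 72 h (FDR 0.0584), and Apaf1 0.12 and 0.06 (FDR 0.645). The change over time was not tested, because no counts were at hand for 72 h. Markers of other cells were called lower at 10 h and mostly higher at 72 h. At 10 h, 8 of 13 erythroid, 9 of 12 neutrophil and 2 of 11 monocyte and macrophage markers fell and 0 rose by the edgeR quasi-likelihood test. Of all genes 4.32% fell and 3.78% rose by that rule. By the authors' deposited FDR, the rule used for 72 h, 13 of 13, 12 of 12 and 6 of 11 fell at 10 h and 0 rose. There 6.83% of all genes fell and 3.57% rose. At 72 h, by the authors' deposited FDR, 8 of 14 erythroid markers rose and 0 fell (median log2 fold change 1.15), 11 of 12 neutrophil markers rose and 0 fell (1.03), and 5 of 11 monocyte and macrophage markers rose and 2 fell (0.15). By that FDR 16.1% of all genes rose and 15.1% fell. The 4 globin genes among the erythroid markers did not pass at 72 h, with log2 fold changes of -0.23 for Hbb-bs, -0.10 for Hbb-bt, -0.11 for Hba-a1 and -0.09 for Hba-a2 in the authors' deposited table. The part of these cells in the values at 72 h was not tested.

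**Figure D2:**
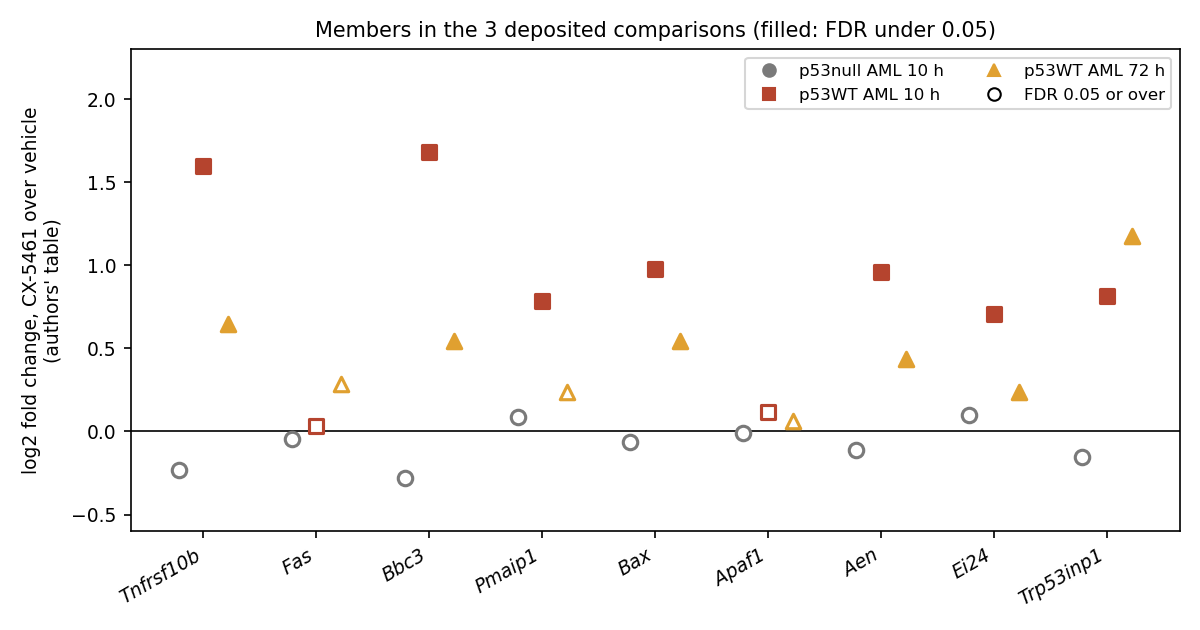
The authors' deposited log2 fold change, CX-5461 over vehicle (y axis), of the 9 measured genes (x axis) in p53null AML at 10 h (grey circles), p53WT AML at 10 h (red squares) and p53WT AML at 72 h (yellow triangles), with filled symbols for an FDR under 0.05. The values of p53null AML lie between -0.28 and 0.10, and Trp53inp1 stands out from the other genes called at 10 h by its larger value at 72 h.

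The level of each gene with vehicle was derived from the authors' deposited log2 CPM and log2 fold change in each table. For the measured members in the count table this came within 0.00528 on the log2 scale of the mean of the vehicle libraries. The vehicle level of Fas was 2.55 CPM in p53null AML at 10 h, against 14.5 CPM in p53WT AML at 10 h and 12.6 CPM in p53WT AML at 72 h. That of Trp53inp1 was 20.2 CPM in p53null AML, against 49.6 CPM in p53WT AML at 10 h and 27.6 CPM at 72 h. Ei24 had 44.1 CPM in p53null AML, against 87.1 and 78.5 CPM in p53WT AML at 10 h and 72 h. Fas was thus the member with the largest gap between the genotypes, in spite of its small value with CX-5461 in either. Bbc3 had 5.58 CPM in p53null AML, against 8.81 and 6.79 CPM in p53WT AML at 10 h and 72 h, and Bax 65.9 CPM, against 88.1 and 89.9 CPM. Tnfrsf10b (5.30 CPM in p53null AML, against 6.51 and 8.48 CPM), Apaf1 (169 CPM, against 180 and 173 CPM) and Aen (70.3 CPM, against 63.8 and 65.1 CPM) differed less at 10 h, while Pmaip1 was higher in p53null AML, at 50.01 CPM against 36.5 and 43.6 CPM.

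As log2 ratios of the vehicle levels at 10 h, p53null over p53WT, the values were -2.51 for Fas, -1.29 for Trp53inp1, -0.98 for Ei24, -0.66 for Bbc3, -0.42 for Bax, -0.29 for Tnfrsf10b, -0.10 for Apaf1, 0.14 for Aen and 0.45 for Pmaip1. Their median was -0.42, against -0.0692 over the 11879 genes in both tables. A ratio of -1 or lower was reached by 2 of the 9 genes and by 7.54% of all genes. For Trp53inp1 this rested on vehicle library 2 of p53WT AML: without it the ratio was -0.97, and against the 72 h vehicle level it was -0.45. For Fas these values were -2.34 and -2.31. The tables were normalized separately, with no values per library for p53null AML, so these ratios have no error or test, and genotype and leukemia of origin cannot be told apart. Of 14 erythroid markers, 6 were in the table of p53null AML and 13 in that of p53WT AML at 10 h. Leukemic and myeloid markers differed as well in vehicle level at 10 h. In p53null and p53WT AML, Elane had 591 and 3685 CPM, Mpo 2046 and 6416, Meis1 36.7 and 121, and Kit 53.4 and 119. Hoxa10 had 43.6 and 65.1 CPM and Ptprc 354 and 408. Hoxa9 (164 and 134) and Itgam (918 and 836) were higher in p53null AML. The part of other cells or of such marker differences in the ratios was not tested.

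**Figure D3:**
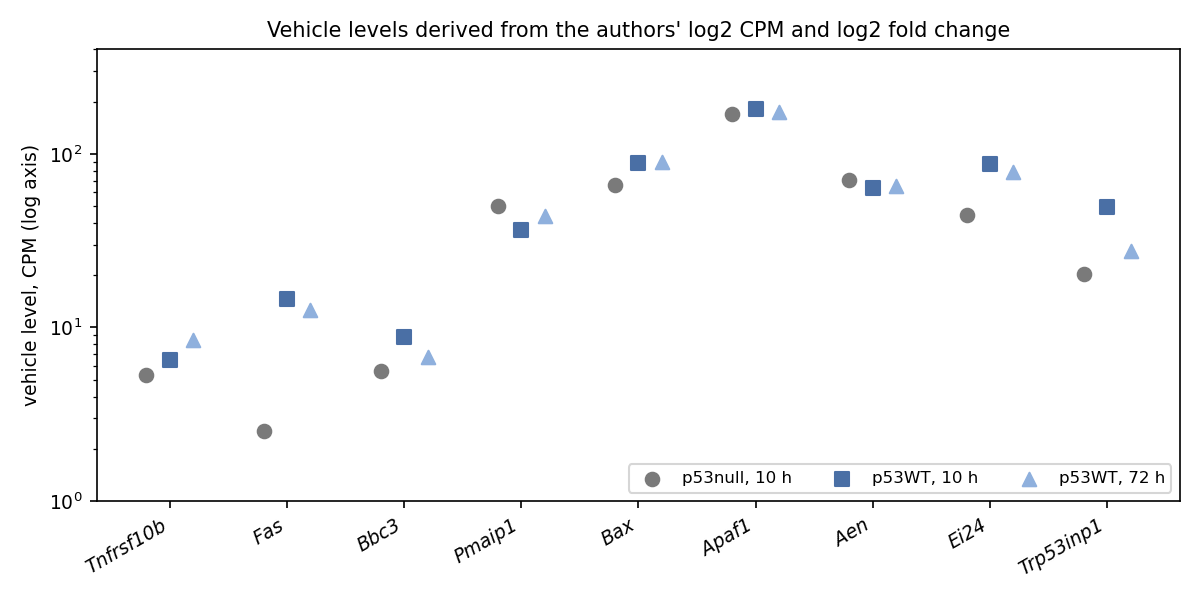
Vehicle level in CPM (log y axis) of the 9 measured genes, derived from the authors' deposited log2 CPM and log2 fold change, in p53null AML at 10 h (grey circles), p53WT AML at 10 h (dark blue squares) and p53WT AML at 72 h (light blue triangles). The symbols of most genes lie close together, while Fas is at 2.55 CPM in p53null AML, against 14.5 and 12.6 CPM in p53WT AML.

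The members were set beside 2 lists of related genes. Of 47 other apoptosis genes, 40 were measured in p53WT AML at 10 h, and 2 rose and 1 fell by the edgeR quasi-likelihood test. Their median was -0.04 on the log2 scale. Of all genes 4.32% fell by that rule, so that the share of calls in this list was near the background in each direction. The genes that rose were Pidd1 (0.62, SE 0.0706), which encodes the core of a complex that activates caspase 2 and is itself a known p53 target, and the anti-apoptotic Bcl2 (0.42, SE 0.0943). Pidd1 had 72.7, 65.9 and 65.3 CPM with CX-5461 and 44.6, 41.1 and 46.8 CPM with vehicle, with no overlap. The BH3-only gene Bmf fell by 0.83 on the log2 scale (SE 0.168). Their edgeR quasi-likelihood adjusted p were 0.0134, 0.0452 and 0.0396 for Pidd1, Bcl2 and Bmf. With the erythroid level as a covariate, or without any 1 CX-5461 library, 0 genes of this list were called. Of all 12679 genes, 20 were called with the covariate, and 25, 23 and 23 without CX-5461 library 1, 2 or 3.

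Of the other anti-apoptotic genes, Mcl1, Bcl2l1 and Birc3 had values below 0 at 10 h and did not pass the edgeR quasi-likelihood test. Mcl1 had 208, 220 and 222 CPM with CX-5461 and 239, 282 and 235 CPM with vehicle (log2 fold change -0.22, edgeR quasi-likelihood adjusted p 0.11). Bcl2l1, which encodes BCL-XL and is also high in red cell precursors, had 46.9, 46.6 and 46.9 CPM with CX-5461, against 69.4, 106 and 56.8 CPM with vehicle. Its vehicle values ran in the order of the erythroid markers, as did those of Mcl1 and Birc3. The summed mature neutrophil markers had the same order (10699, 19310 and 7317 CPM in vehicle libraries 1, 2 and 3). The part of red cell precursors or of neutrophils in these values was not tested. The log2 fold change of Bcl2l1, -0.72, had an adjusted p of 0.0698 by the edgeR quasi-likelihood test, while the gene passed in the authors' deposited table (FDR 0.00653). Birc3, which encodes an inhibitor of apoptosis protein and was picked after its values were seen, had 33.7, 35.4 and 36.1 CPM with CX-5461 and 43.3, 54.4 and 42.4 CPM with vehicle, with no overlap. Its log2 fold change of -0.41 had an adjusted p of 0.0522 by the edgeR quasi-likelihood test and an FDR of 0.0498 in the authors' deposited table. Bak1, the close relative of Bax, had 92.7, 97.5 and 95.9 CPM with CX-5461 and 101, 111 and 99.5 CPM with vehicle. The 2 pore-forming genes thus differed in what they showed: Bax rose, and Bak1 had a log2 fold change of -0.13 (95% interval -0.26 to 0.00837) that did not pass, with an adjusted p of 0.181 by the edgeR quasi-likelihood test.

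In p53null AML, 0 of 41 measured other apoptosis genes passed the authors' FDR, in a table where 0.148% of all genes rose and 0.0389% fell. At 72 h in p53WT AML, 4 of 40 rose and 9 fell by the authors' FDR (median log2 fold change -0.05), where 16.1% of all genes rose and 15.1% fell. Those with the smallest p were Mcl1 (0.64, FDR 4.34e-11), the mitochondrial protease gene Htra2 (-0.48, FDR 3.78e-06), Bmf (-0.61, FDR 0.00013) and Bcl2l11 (0.40, FDR 0.000748), which encodes the BH3-only protein BIM, all in the authors' deposited table. At 72 h Bcl2 had a log2 fold change of -0.27 (FDR 0.0316) and Bcl2l1 0.25 (FDR 0.0109) in that deposited table, each opposite in sign to its value at 10 h. Pidd1 had 0.03 (FDR 0.867) and Bak1 0.11 (FDR 0.29) there.

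Of 21 p53 targets of cell cycle arrest and feedback, all measured in p53WT AML at 10 h, 10 rose and 0 fell by the edgeR quasi-likelihood test, where 3.78% of all genes rose and 4.32% fell. By the FDR of the authors' deposited table, 10 rose and 2 fell, where 3.57% of all genes rose and 6.83% fell. The 2 were the DNA damage response genes Gadd45a (-1.19, FDR 0.00455) and Gadd45g (-1.002, FDR 0.0032), named after their values were seen. DESeq2 and the edgeR exact test each had 10 that rose and 3 that fell. Of all 12679 genes, 960 rose and 1346 fell by DESeq2, and 694 rose and 1021 fell by the exact test. Without CX-5461 library 1, 2 or 3, 7 of the list rose each time, against 24, 23 and 23 of all genes. The median of this list was 0.25 on the log2 scale. The smallest p were those of the cell cycle inhibitor Cdkn1a (2.25), the AKT inhibitor gene Phlda3 (3.85), the cell cycle gene Gtse1 (1.22) and the cyclin gene Ccng1 (1.19). The authors' deposited table also put Plk2 (3.73) and Zmat3 (1.69) among the 4 smallest. Plk2 had 0.75, 1.21 and 0.40 CPM in the vehicle libraries, so that its fold change rests on a vehicle level near 1 CPM. At 72 h, 14 of 21 rose by the authors' FDR, where 16.1% of all genes rose, with a median of 0.59. In p53null AML 0 of 18 passed, in a table where 0.148% of all genes rose and 0.0389% fell. Phlda3, Plk2 and Zmat3 were not in that table, so that no value without p53 is given for them. The members of the apoptosis group had a higher median than this list at 10 h (0.82 and 0.25) and a lower one at 72 h in the authors' deposited table (0.44 and 0.59), and these differences were not tested. The largest value in either list at 10 h was that of Phlda3, above that of Bbc3. In the authors' deposited table for 72 h Zmat3 had 1.95 and Sesn2, which restrains mTORC1 under stress, 1.53, and Cdkn1a 1.70 and Phlda3 3.08, all above every member.

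**Figure D4:**
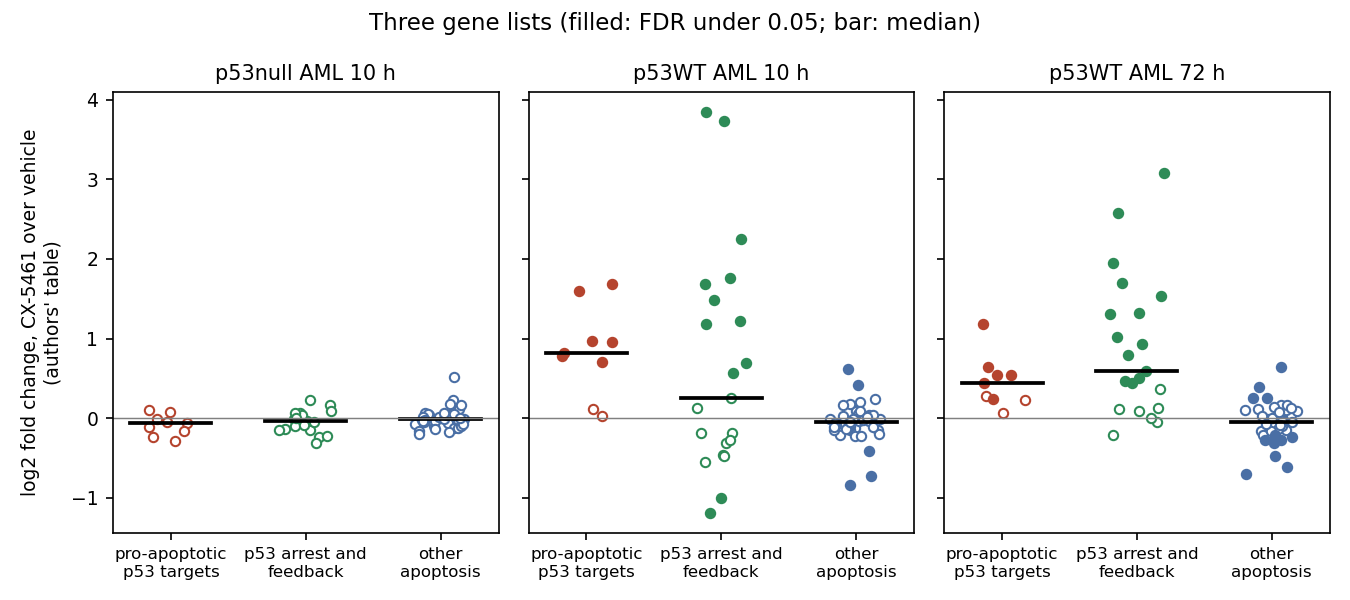
The authors' deposited log2 fold change, CX-5461 over vehicle (y axis), of each measured gene in the group of pro-apoptotic p53 targets (red), the list of p53 arrest and feedback genes (green) and the list of other apoptosis genes (blue), with panels for p53null AML at 10 h, then p53WT AML after 10 h, then after 72 h, and with filled points for an FDR under 0.05 and black bars for medians. Medians of the pro-apoptotic targets were -0.06, 0.82 and 0.44 in that order of panels, and those of the other apoptosis genes lie near 0 in each panel.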

How the data were processed

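RNA sequencing counts were taken from the files the authors deposited. The build mm9 and the tools Bowtie, HTSeq, edgeR and CASAVA 1.8.2 are named in the submitters' processing notes, while their settings and the annotation are not given in the sources used here. All 3 deposited tables give, per the file headers, log2 CPM means, log2 fold changes, a p-value and an FDR, and that for p53WT AML at 10 h also holds raw counts of 6 libraries. Columns name the arm and a number from 1 to 3, while titles carry the numbers 3 to 5, so each column was given to its group. All 12679 genes of that table exceeded 1 CPM in at least 3 libraries, so the table holds no gene that was low in every library. Symbols were paired with IDs for 12237 (p53WT, 10 h), 12366 (p53null) and 12362 (72 h) genes.

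Counts were normalized by TMM and tested with edgeR 4.0.16 in R 4.3.3 (glmQLFTest, two-sided). The design held treatment alone, and p was adjusted by Benjamini-Hochberg over all genes. CPM values use TMM library sizes. Intervals are 95% from the fit's SE. The authors' log2 fold changes correlated across genes with these at r = 0.9999, so positive means higher with CX-5461, which was assumed for the other 2 tables. The test was tried on simulated data. At a log2 change of 0.75 it recovered 56.7% of changed genes among 12679 (p53WT AML, 10 h), and at 1.5 it recovered 94.8%. The simulated counts held 200 changed genes and varied independently between genes. Shifts shared by many genes, such as those of the erythroid markers, were thus not part of that trial. Alternatives were RLE factors, library size alone, DESeq2 1.42.0, the edgeR exact test, limma-voom 3.58.1, a filter, an adjusted p of 0.01, the erythroid level as a covariate and leaving out each library. Members and lists were chosen with earlier results of these data known. Named genes were all members, the 4 genes of each other list with the smallest p among those called in each comparison, and Trp53, Bcl2, Mcl1, Bcl2l1 and Bak1.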

Additional observations from a re-analysis of the deposited data

How the results depend on the processing

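Of the 9 measured members, 6 were called in p53WT AML at 10 h, and 3 with the erythroid level as a covariate (Aen, Bax and Bbc3). Leaving out 1 library gave 4 to 7. Bbc3, Bax and Aen had an adjusted p under 0.05 in all 14 alternatives and Tnfrsf10b in 13. Pmaip1 and Ei24 each had one in 10 and Trp53inp1 in 3 (DESeq2, the edgeR exact test, and without vehicle library 2). The log2 fold change of Fas was -0.0479 without CX-5461 library 2, -0.00839 without vehicle library 1 and -0.0777 without vehicle library 3, ranged from -0.0777 to 0.192 without 1 library and was 0.50 with the erythroid covariate, and its adjusted p was 0.319 or higher in all 14. Over all genes, 1027 were called, against 2306 by DESeq2, 1715 by the edgeR exact test, 20 with the erythroid covariate, 27 at an adjusted p under 0.01, and 23 to 1678 without 1 library. Without CX-5461 library 1, 2 or 3 the counts over all genes were 25, 23 and 23, and the cause was not tested. Of the other apoptosis genes 3 were called, against 5 with library size alone, 9 by DESeq2, 5 by the edgeR exact test, 0 with the erythroid covariate, 0 at an adjusted p under 0.01 and 0 to 6 without 1 library. The arrest and feedback list had 7 to 13 calls, against 10. Vehicle level ratios without each p53WT vehicle library were added after seeing the data. The counts from the authors' tables stayed within 1.5 times. No paired analysis was possible because the count columns do not carry the replicate numbers of the sample titles, and the other tables hold no counts. Depth is unknown for those tables.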
